A study of Sus scrofa with 6 samples.

Results

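Genes of 3 vasoactive peptide systems were followed in the ventricle of Tibetan minipigs with chronic pressure overload: AGT, ACE and AGTR1 of the renin-angiotensin system, EDN1, EDNRA, EDNRB and ECE1 of the endothelin system, and APLN and APLNR of the apelin system. They were taken by symbol from the deposited expression table. All 9 were among the 13288 genes listed there, and none was absent. The sham group held 3 minipigs with thoracotomy alone (sham 1 to 3), and the DAC group held 3 minipigs whose descending aorta was narrowed with sutures (DAC 4 to 6). The minipigs were male, their age is not given in the sources used here, and the heart tissue was collected at week 12 after surgery. Each library came from the ventricular tissue of 1 minipig, and whether it was taken from the left or the right side is not given for these libraries. All minipigs were opened at the chest, so the groups differ by the constriction and not by the thoracotomy.

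The study asked how the myocardium responds to constriction that induces heart failure with preserved ejection fraction, and these peptide systems are among the signals classically linked to loading of the heart. Angiotensinogen (AGT) is cut by renin and then by angiotensin-converting enzyme (ACE) to angiotensin II, which raises blood pressure and acts on the heart and vessels mainly through the type 1 receptor (AGTR1). Endothelin-1 (EDN1) is released as a precursor by endothelial cells and trimmed by furin and by endothelin-converting enzyme (ECE1). Its receptor EDNRA drives contraction of smooth muscle, whereas EDNRB on endothelial cells clears the peptide and stimulates nitric oxide release. Apelin (APLN) acts through APLNR, relaxes vessels and strengthens contraction, and is commonly described as a counterweight to angiotensin II.

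Of these 9 genes, 1 (11.1%) passed the threshold used for differentially expressed genes (DEGs), near the 8.51% of all genes tested. ECE1 was lower in the DAC group, with a mean FPKM 20.4% below that of the sham group. Its adjusted P was 0.585 from limma. The call was kept in only 3 of 9 other settings and in only 1 of the fits without 1 minipig. The remaining 8 genes, which include every peptide precursor and every receptor, had overlapping groups. Groups did not overlap in 14.9% of all genes tested. The mean was lower in the DAC group for 7 of the 9 on the log2 scale, and higher for EDN1 and APLNR. Over all genes tested, 53.4% had the lower mean in the DAC group. Of the 9, only ECE1 and APLNR kept their sign whichever minipig was left out. AGT, APLN, APLNR and EDNRB varied more between minipigs of the same group than at least 96.8% of the genes tested, so that large differences between the groups could have gone undetected for them.

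FPKM is the number of fragments scaled to transcript length and to all mapped fragments of the library, so genes can be compared within a library. Between minipigs it is relative to the make-up of each library, and a shift in abundant genes moves the values of the others. The test used the log2 of FPKM + 1. A gene was kept where 3 or more of the 6 libraries reached 1 FPKM, and the groups were compared with limma's moderated test. All 9 genes passed this filter. A DEG has an unadjusted P under 0.05 here. Of the 11029 genes tested, 939 or 8.51% were DEGs, of which 358 (3.25%) were higher and 581 (5.27%) were lower in the DAC group. The lower genes made up 61.9% of the DEGs. Scaling by the median gave 52.0%, quantile normalization gave 52.9%, and leaving out the mitochondrially encoded genes gave 44.9%. No gene had a Benjamini-Hochberg adjusted P under 0.05 from limma, and the smallest was 0.106. With 1 of 9 called, or 11.1%, the share of DEGs among the genes of the 3 systems was near the background of 8.51%. Their median log2 fold change was -0.11, and that of all genes tested was -0.016.

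The libraries had FPKM sums between 281377 and 308771, and how many reads stand behind each value is unknown. Mitochondrially encoded genes took 24.0%, 25.1% and 25.3% of the FPKM in sham 1, 2 and 3 and 27.2%, 32.8% and 27.1% in DAC 4, 5 and 6. Every DAC library thus lay above every sham library in this share, and its part in the results was tested only by leaving those genes out. DAC 5 stood apart from the rest, and values without it are given where a result turns on it. Cardiomyocyte markers such as MYL2 and TNNT2 were abundant in every library, and the 10 markers in the table summed to between 14269 and 17202 FPKM, so the labelled tissue was matched by its markers. The tissue is a mixture of cells, so fewer cells of a type and less RNA per cell cannot be told apart.

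In order of their mean FPKM over the 6 minipigs, the genes were AGT (69.6), ECE1 (39.7), EDNRA (14.7), ACE (9.42), APLNR (8.79), APLN (5.94), EDNRB (5.06), AGTR1 (4.41) and EDN1 (1.83). The ranges of ECE1 and EDNRA, of EDNRA and ACE, and of AGTR1 and EDN1 did not overlap across the 6 minipigs. The other neighbours in this order had overlapping ranges. AGT lay above 95.1% of the genes tested by its mean log2 level and EDN1 above 13.6% of them, so the precursor of angiotensin and the precursor of endothelin sat near opposite ends of the range.

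**Figure D1:**
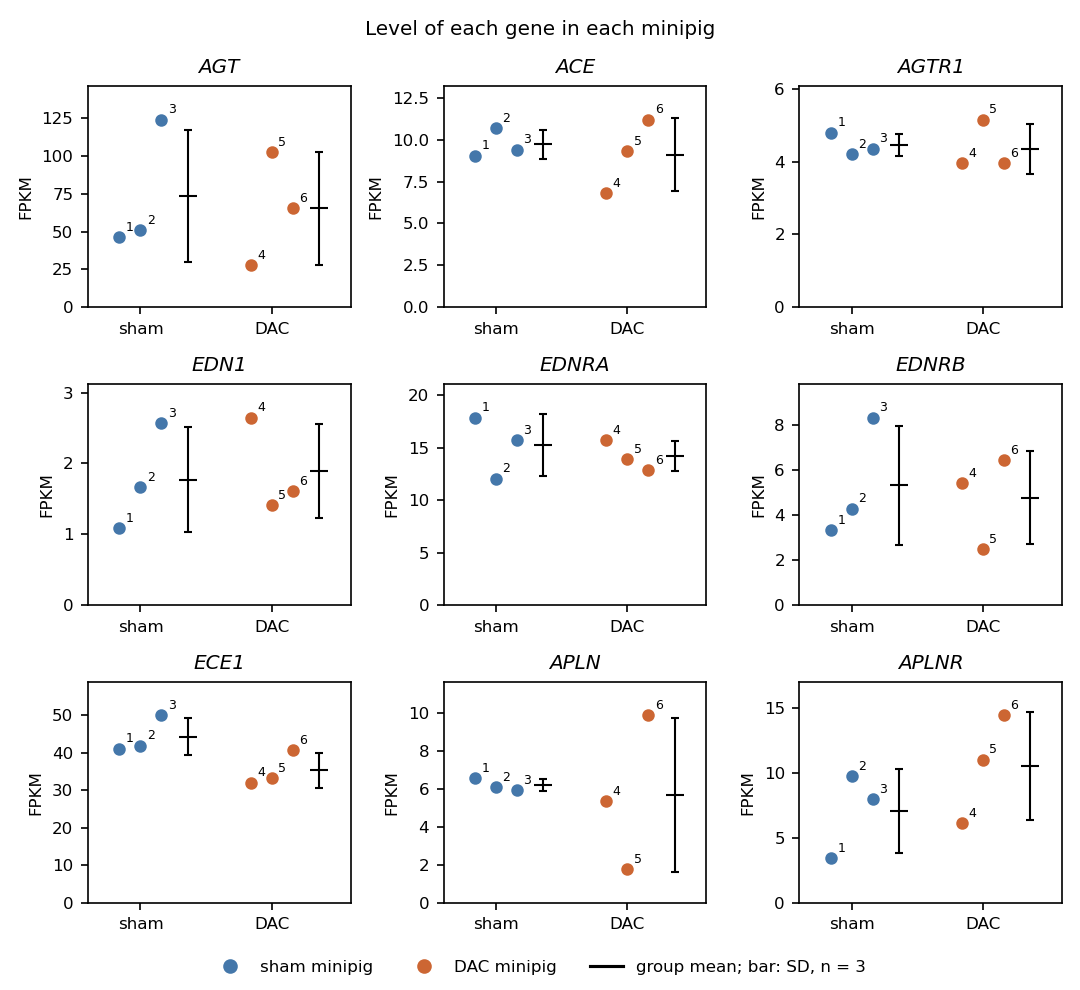
FPKM of the 9 genes in each minipig, with the sham minipigs 1 to 3 on the left and the DAC minipigs 4 to 6 on the right of each panel, and the mean with its SD (n = 3) beside them. Only in the panel of ECE1 do the points of both groups not overlap, and the points of AGT, APLN, APLNR and EDNRB spread widely within a group.

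Among the precursors and enzymes of the renin-angiotensin system, AGT (ENSSSCG00000010184, chromosome 14 from 59643292 to 59672428) had the widest spread of the 9 genes on the log2 scale. Its level was 46.2, 51.2 and 124 FPKM in sham 1, 2 and 3, and 27.9, 103 and 65.6 FPKM in DAC 4, 5 and 6. One minipig of each group, sham 3 and DAC 5, stood near or above 100 FPKM, and the lowest value of all was that of DAC 4. The means were 73.8 ± 43.6 FPKM (SD, n = 3) for sham and 65.4 ± 37.3 FPKM (SD, n = 3) for DAC minipigs. It had a log2 fold change of -0.21 with a 95% interval from -1.46 to 1.04 (unadjusted P = 0.707, adjusted P = 0.929 from limma). It was 0.24 without sham 3 and 0.30 without DAC 4, so that these single minipigs set its sign. The listed position of AGT overlaps that of COG2 on the opposite strand, a gene of the Golgi tethering complex, between 59661772 and 59672428. In the RefSeq annotation of Sscrofa11.1, AGT ends at 59656835 and the genes do not overlap. COG2 was between 5.92 and 8.49 FPKM in the 6 minipigs, well below the lowest value of AGT.

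ACE (ENSSSCG00000017296, chromosome 12 from 15394487 to 15414639), which removes the last residues of angiotensin I and also breaks down bradykinin, was at 9.06, 10.7 and 9.41 FPKM in sham 1, 2 and 3. In DAC 4, 5 and 6 it was at 6.81, 9.33 and 11.2 FPKM. The DAC group thus held both the lowest and the highest value. The log2 fold change of ACE was -0.11 (standard error 0.17, 95% interval -0.51 to 0.30, adjusted P = 0.883 from limma), and it was 0.069 without DAC 4.

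AGTR1 (ENSSSCG00000011695, chromosome 13 from 88934868 to 88983131), the main receptor of angiotensin II, was the steadiest of the 9 genes. It was at 4.80, 4.21 and 4.36 FPKM in sham 1, 2 and 3, and at 3.97, 5.16 and 3.96 FPKM in DAC 4, 5 and 6. All 6 values lay within a ratio of 1.3 between the highest and the lowest. Its log2 fold change was -0.033, and its 95% interval from -0.33 to 0.26 was the narrowest of the 9. Its sign turned without sham 1, DAC 4 or DAC 6 (0.012 to 0.020) and with the mitochondrially encoded genes left out (0.0034).

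The wider renin-angiotensin list held the prorenin receptor ATP6AP2 and peptidases that form or degrade angiotensin peptides. Of its 11 tested genes, 0 were DEGs, at a median log2 fold change of -0.040. The mean was lower with DAC for 8 of them, and for 53.4% of all genes tested. PRCP, a lysosomal carboxypeptidase that can shorten angiotensin II, had the largest difference. It was at 6.6, 11.6 and 7.10 FPKM in the sham minipigs and at 9.39, 11.9 and 13.3 FPKM in the DAC minipigs. The groups overlapped because of sham 2, and the log2 fold change of 0.44 (95% interval -0.077 to 0.95) had an unadjusted P of 0.0846. Without 1 minipig it ranged from 0.30 without sham 1 (unadjusted P = 0.243) to 0.66 without sham 2 (unadjusted P = 0.00685), and only the latter passed the threshold. CTSA, a carboxypeptidase of the lysosome that can act on angiotensin I, had the highest level of the list with 52.1 ± 6.28 FPKM (SD, n = 3) for sham and 45.7 ± 3.23 FPKM (SD, n = 3) for DAC minipigs, and it was not a DEG (unadjusted P = 0.191). ENPEP, which trims angiotensin II to angiotensin III, was at 4.22 ± 0.654 FPKM (SD, n = 3) and 4.2 ± 1.43 FPKM (SD, n = 3). ANPEP, an aminopeptidase of the next step, was under the filter, between 0.287 and 1.19 FPKM. Renin, AGTR2 and MAS1 were not analysed here.

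**Figure D2:**
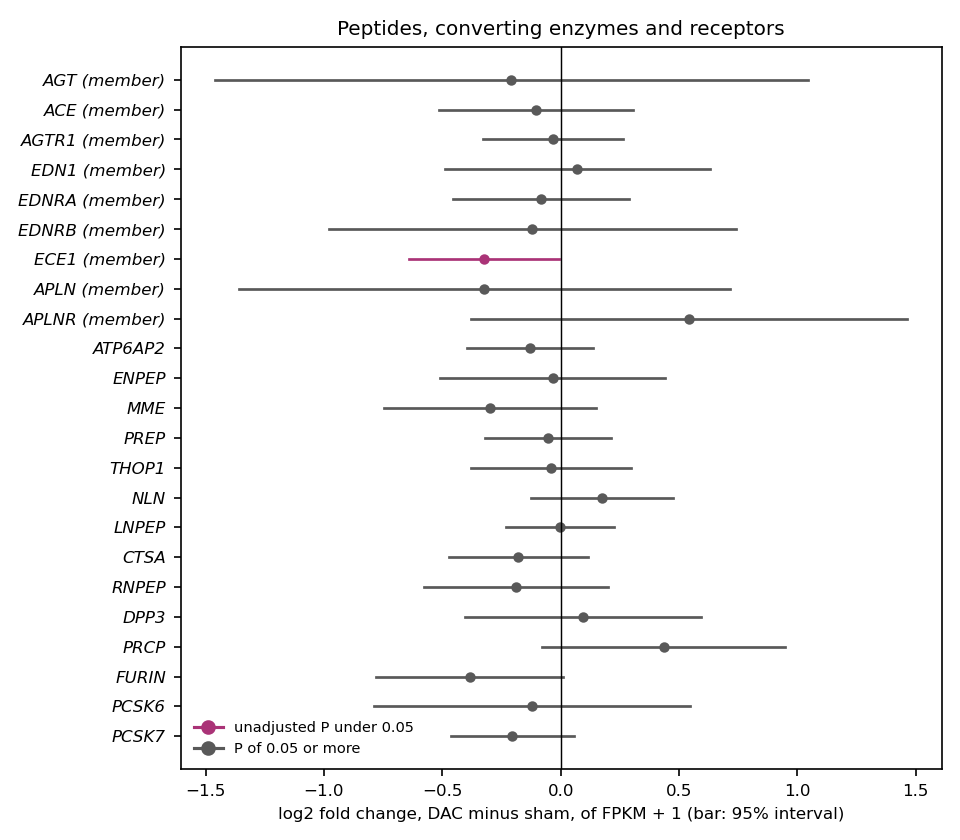
Log2 fold change (DAC minus sham, of FPKM + 1) with its 95% interval for the 9 genes, marked as members, and for 14 further peptidases, convertases and the prorenin receptor. The interval of ECE1 from -0.64 to -0.0057 is the only one that lies on one side of 0.

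In the endothelin system, only the converting enzyme passed the unadjusted threshold, and precursor and receptors did not. The intervals of EDN1, EDNRA and EDNRB all held the log2 fold change of ECE1, -0.32. A difference between the enzyme and these genes was thus not shown. ECE1 (ENSSSCG00000003513, chromosome 6 from 79408328 to 79466106), a membrane metalloprotease that cuts big endothelin to the active peptide, was at 41.0, 41.9 and 49.9 FPKM in sham 1, 2 and 3. It was at 32.0, 33.2 and 40.5 FPKM in DAC 4, 5 and 6. Every DAC minipig was below every sham minipig, but DAC 6 and sham 1 were nearly level. Groups that did not overlap were found in 14.9% of all genes tested, with the DAC group lower in 8.91% and higher in 6.01%.

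The means of ECE1 were 44.3 ± 4.91 FPKM (SD, n = 3) for sham and 35.2 ± 4.64 FPKM (SD, n = 3) for DAC minipigs. Its log2 fold change was -0.32 with a standard error of 0.13 (unadjusted P = 0.0470, adjusted P = 0.585 from limma). By its P it ranked 548 among genes whose mean was lower with DAC. The direction was kept under every alternative tried, but the call was lost in 6 of 9 other settings and in 5 of 6 fits without 1 minipig. One of the settings that ended the call left out the mitochondrially encoded genes, whose share was higher in every DAC library. The call was kept without DAC 6, where the log2 fold change was -0.43 (unadjusted P = 0.0186).

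EDN1 (ENSSSCG00000035598, chromosome 7 from 8751695 to 8758348), the endothelin-1 precursor, was at 1.09, 1.66 and 2.57 FPKM in sham 1, 2 and 3. In DAC 4, 5 and 6 it was at 2.65, 1.41 and 1.6 FPKM. The highest values of both groups were nearly the same, and the groups overlapped. For EDN1 the log2 fold change was 0.070 (standard error 0.24, 95% interval -0.49 to 0.63), and it was -0.12 without sham 1 and -0.11 without DAC 4. At this level the added 1 weighs on the fold change, which was 0.11 with a pseudocount of 0.1.

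EDNRA (ENSSSCG00000009031, chromosome 8 from 81209327 to 81276853) was the most abundant receptor gene of the set. It was at 17.9, 12.1 and 15.8 FPKM in sham 1, 2 and 3, and at 15.7, 13.9 and 12.9 FPKM in DAC 4, 5 and 6. The sham minipigs spanned the whole range of the DAC minipigs. The log2 fold change of EDNRA was -0.084 (95% interval -0.46 to 0.29), and it was 0.034 without sham 1.

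EDNRB (ENSSSCG00000009477, chromosome 11 from 50072554 to 50102884) varied far more than EDNRA. Its level was 3.33, 4.30 and 8.35 FPKM in sham 1, 2 and 3, and 5.42, 2.49 and 6.46 FPKM in DAC 4, 5 and 6. Sham 3 and DAC 6 were the highest of their groups, and DAC 5 was the lowest of all. EDNRB had a log2 fold change of -0.12 (95% interval -0.98 to 0.74), but 0.20 without sham 3 and 0.21 without DAC 5.

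The balance of both receptors was read as the ratio of EDNRB to EDNRA within a minipig, which does not depend on the scaling of the libraries. It was 0.186, 0.356 and 0.530 in sham 1, 2 and 3, and 0.345, 0.179 and 0.501 in DAC 4, 5 and 6. EDNRA was thus the higher of the receptors in all 6 minipigs, by a ratio that differed 2.97-fold between them. The mean log2 ratio differed by -0.064 between DAC and sham (two-sided exact permutation P = 0.70, where 3 minipigs against 3 cannot give a P under 0.10). Its sign turned without sham 3 (0.28) and without DAC 5 (0.34).

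**Figure D3:**
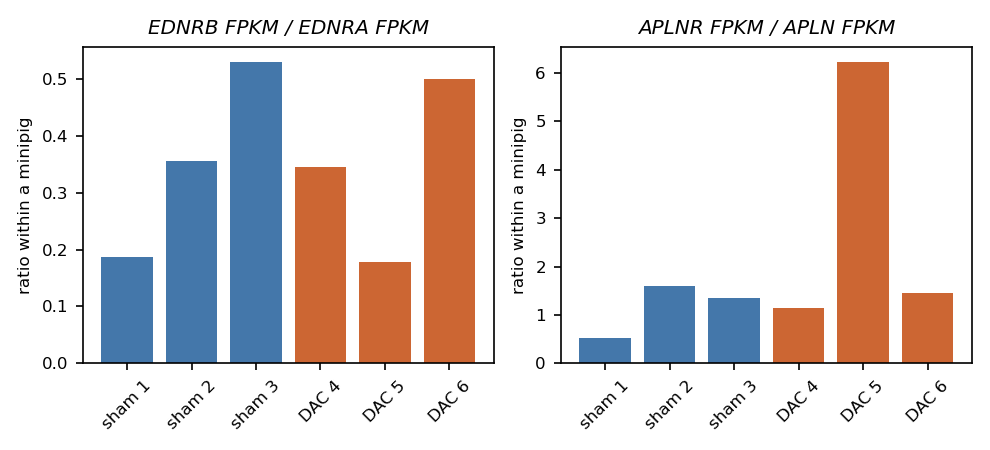
Ratio of FPKM within each minipig, of EDNRB to EDNRA on the left and of APLNR to APLN on the right, with sham minipigs in blue and DAC minipigs in orange. The receptor ratio ranges from 0.179 to 0.530 with no separation of the groups, and the apelin ratio of 6.23 in DAC 5 stands above the other 5, which lie between 0.522 and 1.59.

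The wider endothelin and apelin list held 4 tested genes, and 0 of them were DEGs, although the DAC mean was the lower one for all 4. Over all genes tested, it was the lower one for 53.4%. MME is counted in this list and in the wider renin-angiotensin list. FURIN, the convertase that releases big endothelin from its precursor, was at 29.4, 19.1 and 24.5 FPKM in the sham minipigs and at 16.5, 20.1 and 17.9 FPKM in the DAC minipigs. Sham 2 lay within the range of the DAC group. FURIN differed by -0.38 on the log2 scale (95% interval -0.78 to 0.010) at an unadjusted P of 0.0548, which became 0.0444 with sample weights and 0.113 with the variance of each gene alone. Without 1 minipig the change of FURIN ranged from -0.54 without sham 2 (unadjusted P = 0.00931) to -0.24 without sham 1 (unadjusted P = 0.178). PCSK7, another convertase of the family, had groups that did not overlap, as had 14.9% of all genes tested. It was at 4.85 ± 0.466 FPKM (SD, n = 3) for sham and 4.07 ± 0.301 FPKM (SD, n = 3) for DAC minipigs (unadjusted P = 0.105 from limma). MME or neprilysin, which degrades endothelin as well as angiotensin and natriuretic peptides, was at 4.56 ± 0.492 FPKM (SD, n = 3) and 3.60 ± 1.07 FPKM (SD, n = 3), with an unadjusted P of 0.158. The median log2 fold change of the 4 genes was -0.25. EDN2, EDN3, ECE2 and APELA were not analysed here.

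In the apelin system, APLN (ENSSSCG00000048443, chromosome X from 106236748 to 106246378) was even among the sham minipigs and uneven among the DAC minipigs. Its level was 6.58, 6.11 and 5.94 FPKM in sham 1, 2 and 3, a ratio of 1.11 between the highest and the lowest. In DAC 4, 5 and 6 it was 5.35, 1.77 and 9.89 FPKM, a ratio of 5.59. DAC 5 was the lowest and DAC 6 the highest of all 6, so the DAC values lay on both sides of the sham values. For APLN the log2 fold change was -0.32 (standard error 0.44, 95% interval -1.36 to 0.72), and it was 0.21 without DAC 5 and -0.78 without DAC 6 (unadjusted P = 0.0554).

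APLNR (ENSSSCG00000038869, on an unplaced scaffold from 68318 to 72029) had the largest log2 fold change of the 9 genes. It was at 3.43, 9.74 and 7.98 FPKM in sham 1, 2 and 3, and at 6.14, 11 and 14.4 FPKM in DAC 4, 5 and 6. The highest values were those of DAC 6 and DAC 5, but DAC 4 lay below sham 2 and sham 3. The means were 7.05 ± 3.25 FPKM (SD, n = 3) for sham and 10.5 ± 4.16 FPKM (SD, n = 3) for DAC minipigs. APLNR had a log2 fold change of 0.54 with a 95% interval from -0.38 to 1.46 (unadjusted P = 0.207, adjusted P = 0.711 from limma). Its sign was the same in all fits without 1 minipig, from 0.16 without sham 1 to 0.85 without DAC 4 (unadjusted P = 0.0701).

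Receptor and peptide of the apelin system did not vary together in DAC 5, which had the lowest APLN and the second highest APLNR. The ratio of APLNR to APLN was 0.522, 1.59 and 1.34 in sham 1, 2 and 3, and 1.15, 6.23 and 1.46 in DAC 4, 5 and 6. Without DAC 5, the ratios of the DAC group lay within those of the sham group. DAC 6, with the highest APLN and APLNR, also had the highest values of the atrial or endocardial markers MYL4 (17.6 FPKM, against 0.780 to 9.22 in the other 5), SLN (9.83 against 0.278 to 1.44) and NPR3 (12.5 against 2.37 to 5.33). The other listed markers were not highest there, with NR2F1 at 0.319 FPKM in DAC 6 against 0.972 in DAC 4, and TBX5 at 25.5 FPKM in both. Of that list 5 genes were in the table, and they summed to between 29.0 and 32.5 FPKM in the sham group and between 22.9 and 65.7 FPKM in the DAC group. None of its 4 tested genes was a DEG, against 2 without DAC 5. The part of these cells in the apelin values was not tested.

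The 9 genes differed widely in their spread within groups. Over all genes tested, the median SD within groups of log2(FPKM + 1) was 0.18, and 7 of the 9 genes lay above it. The SD was 0.86 for AGT, 0.71 for APLN, 0.62 for APLNR and 0.58 for EDNRB, larger than in 99.1%, 98.3%, 97.3% and 96.8% of the genes tested. EDN1 followed with 0.35. ACE, EDNRA, ECE1 and AGTR1 had an SD of 0.24, 0.21, 0.17 and 0.14, the last being smaller than the SD of most genes. A log2 fold change of 1 in either direction lay outside the 95% interval for 6 of the 9 genes, namely ACE, AGTR1, EDN1, EDNRA, EDNRB and ECE1. For EDNRB this was narrow, with a lower bound of -0.98. Its standard error of 0.37 grew to 0.44 with a pseudocount of 0.1 and to 0.47 with the variance of each gene alone, so this exclusion is not firm. On the scale of FPKM + 1, a change of 1 is more than a 2-fold change of FPKM for low genes such as EDN1 and EDNRB. The interval of AGT held such a change in both directions, that of APLN held a fall by 1 but no rise by 1, and that of APLNR held a rise by 1 but no fall by 1.

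**Figure D4:**
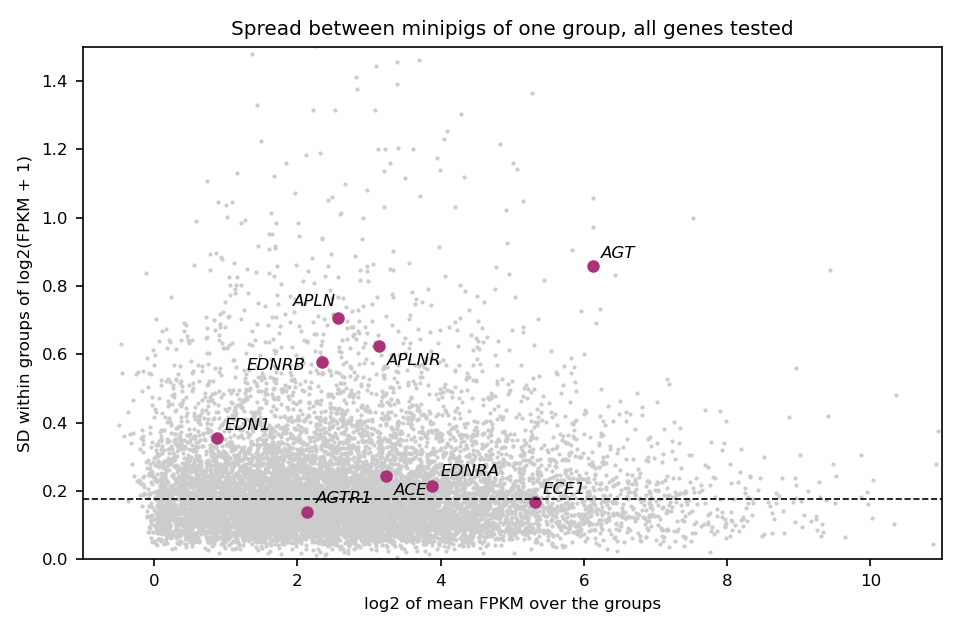
SD within groups of log2(FPKM + 1) against the log2 of the mean FPKM for the genes tested (grey) and the 9 genes of the peptide systems (purple), with the median SD of 0.18 as a dashed line and 28 genes beyond the axes. AGT, APLN, APLNR and EDNRB lie far above the line, and AGTR1 and ECE1 lie just below it.

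The wide values were not ordered alike among the minipigs. AGT was highest in sham 3 and DAC 5, EDNRB in sham 3 and DAC 6, and both apelin genes in DAC 6. Likeness of profile was measured as the root mean square difference of log2(FPKM + 1), each gene centred on its own mean, over the 6 samples. The nearest gene to AGT was MT1X, a metallothionein, at a difference of 0.26, with means of 6.99 FPKM in the sham group and 5.06 FPKM in the DAC group. The nearest to APLN was GNB5 (0.16), to APLNR it was RAP2B (0.21), and to EDNRB it was GP1BB (0.092). Within a difference of 0.1 there was no gene for AGT, APLN or APLNR and 1 gene for EDNRB. By contrast, ANKRD10 was nearest to ECE1 (0.033), where 89 genes lay within 0.1, and DUSP11 was nearest to AGTR1 (0.021), where 578 did. TM9SF3 was nearest to EDN1 (0.063), FHOD3 to EDNRA (0.051) and LIPT2 to ACE (0.042). With 6 samples and 11029 genes, near profiles of this kind are a description only.

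Since EDN1, ECE1, EDNRB, ACE, APLN and APLNR are all transcribed in endothelial cells, 16 endothelial markers were read beside them. Of these, 3 were higher in the DAC group and 4 were lower, and 9 were not DEGs. Over all genes tested, 3.25% were called higher and 5.27% lower. CD34, a surface sialomucin, was at 20.4, 22.9 and 21.5 FPKM in sham 1, 2 and 3 and at 28.1, 29.8 and 38.8 FPKM in DAC 4, 5 and 6. KDR, the main signaling receptor of vascular endothelial growth factor, rose by 0.60 on the log2 scale, and EMCN by 0.39. CLDN5, a tight junction protein, was at 8.30, 12.3 and 18.8 FPKM in sham 1, 2 and 3 and at 4.14, 3.78 and 6.88 FPKM in DAC 4, 5 and 6. The log2 fold change of CLDN5 was -1.22 (unadjusted P = 0.00483), and those of ROBO4, VWF and FLT1 were -0.75, -0.49 and -0.44. The smallest adjusted P of the list was 0.482 from limma.

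The 16 markers summed to between 300.2 and 402 FPKM in the sham group and between 273 and 378 FPKM in the DAC group, so the sums overlapped. The lowest sums were those of DAC 5 (273), DAC 4 (287) and sham 1 (300.2). EDNRB and APLN were lowest in DAC 5, ACE and ECE1 in DAC 4, and EDN1 and APLNR in sham 1. Other values in these libraries went the other way. EDN1 was highest of all in DAC 4, APLNR was second highest in DAC 5, and APLN was second highest in sham 1. As a percentage of this sum, ECE1 was at 13.7, 10.4 and 12.8 in sham 1, 2 and 3 and at 11.1, 12.2 and 10.7 in DAC 4, 5 and 6. On that scale the groups of ECE1 overlapped, with means of 12.3 ± 1.69 (SD, n = 3) and 11.3 ± 0.742 (SD, n = 3). The median log2 fold change of the markers was -0.20, and it ranged from -0.37 without sham 1 to -0.098 without DAC 5. Between 4 and 7 of them were DEGs when 1 minipig was left out, with 4 without sham 3. The part of the endothelial share of the tissue in the difference of ECE1 was not tested.

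**Figure D5:**
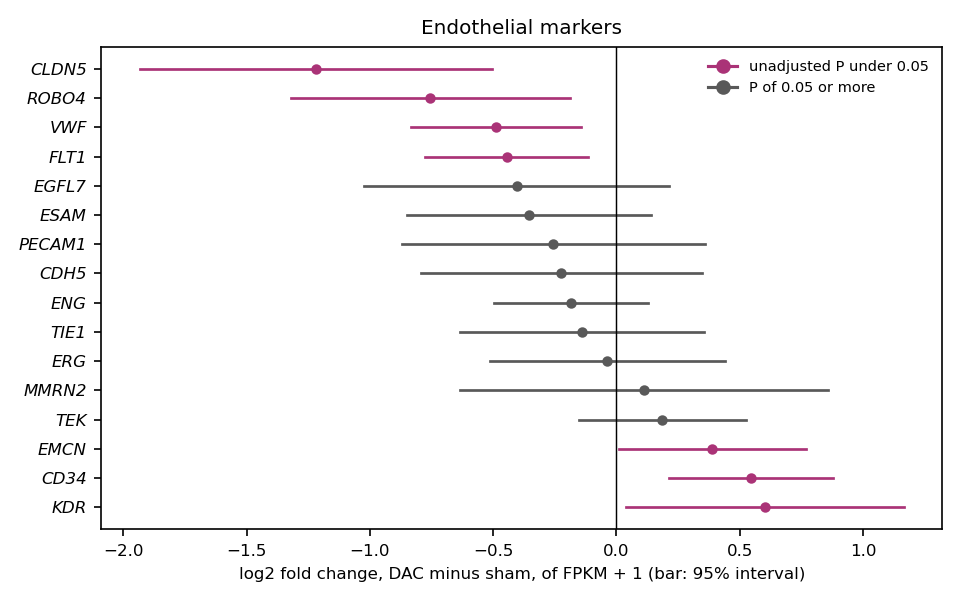
Log2 fold change (DAC minus sham, of FPKM + 1) with its 95% interval for 16 endothelial markers, ordered by size and coloured where the unadjusted P is under 0.05. CLDN5, ROBO4, VWF and FLT1 lie below 0, whereas EMCN, CD34 and KDR lie above it.

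Other cells that carry the receptors were read in the same way, beside the 3.25% of all genes tested called higher and the 5.27% called lower. Of 12 markers of smooth muscle and pericytes, where EDNRA and AGTR1 are found, 1 was higher in the DAC group (CNN1, calponin, log2 fold change 0.60) and 0 were lower. The count of DEGs in that list was 0 without sham 1, without sham 2 and with the variance of each gene alone. It was 2 without sham 3, DAC 5 or DAC 6, and also 2 with mitochondrially encoded genes left out. The sums of these 12 markers were between 213 and 252 FPKM in the sham group and between 236 and 276 FPKM in the DAC group. Of 12 fibroblast markers, 5 were higher and 0 were lower, with sums of 601 to 686 FPKM in the sham group and 819 to 953 FPKM in the DAC group. These sums did not overlap, but the genes with the highest FPKM weigh most in them. COL1A1, COL1A2 and COL3A1 had means of 94.0, 73.3 and 173 FPKM for sham and 165, 110 and 238 FPKM for DAC minipigs. Of the 12 markers, 7 were not DEGs, and 3 had the lower mean in the DAC group on the log2 scale. OGN and the collagen genes COL1A2, COL1A1 and COL3A1 had the smallest P of the list, with log2 fold changes of 0.79, 0.59, 0.81 and 0.46. AGTR1, which cardiac fibroblasts also express, had overlapping groups in the same libraries. Whether the share of fibroblasts in the tissue differed was not tested.

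Below the receptors, Gq proteins pass the signal to phospholipase C, and related G proteins pass it to the contractile machinery. Of 33 tested genes of this signaling list, 1 rose and 1 fell with DAC, at a median log2 fold change of -0.0029. Over all genes tested, 8.51% were DEGs. GRK5, a kinase that desensitizes receptors of this class, was at 37.1, 28.0 and 28.8 FPKM in sham 1, 2 and 3 and at 35.7, 56.7 and 40.7 FPKM in DAC 4, 5 and 6. Sham 1 overlapped the DAC group, and the log2 fold change was 0.47 (unadjusted P = 0.0442). PPP1R12B, a regulatory subunit of myosin phosphatase, was at 140, 117 and 156 FPKM in sham 1, 2 and 3 and at 108, 110 and 111 FPKM in DAC 4, 5 and 6, without overlap. The DAC group lay below the sham group without overlap in 8.91% of all genes tested. The log2 fold change of PPP1R12B was -0.32 (unadjusted P = 0.0384 from limma). The adjusted P of both was 0.584 from limma, and the number of DEGs in the list was 0 without sham 3 and 5 without sham 2.

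Genes that angiotensin II or endothelin are known to induce in heart cells were read last, and other stimuli of the loaded heart induce them as well. Of 20 tested genes, 4 rose and 0 fell with DAC, at a median log2 fold change of 0.062. Over all genes tested, 3.25% were called higher and 5.27% lower. NPPB, the precursor of brain natriuretic peptide, was at 15.5, 43.9 and 43.4 FPKM in sham 1, 2 and 3 and at 80.6, 93.3 and 107 FPKM in DAC 4, 5 and 6. The log2 fold change of NPPB was 1.55 (standard error 0.38, adjusted P = 0.482 from limma). RCAN1, an inhibitor of calcineurin, was at 13.7, 14.4 and 11.6 FPKM in the sham minipigs and at 58.8, 18.9 and 45 FPKM in the DAC minipigs. The matricellular gene POSTN and the chemokine gene CCL2 had log2 fold changes of 0.71 and 0.85. The number of DEGs in the list was 7 without DAC 5 and between 3 and 5 in the other settings.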

How the data were processed

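RNA of the ventricular tissue of 3 sham and 3 DAC minipigs was extracted with TRIzol, and libraries were made with the NEBNext Ultra kit. The authors deposited 1 table of FPKM values, with 1 column per minipig and nothing pooled. The submitters' processing notes name HISAT2 and the build susScr11. The program that counted fragments, the annotation version and the strand setting are not given in the sources used here. Every listed gene reaches 0.500 FPKM in some sample, so genes below that were not analysed here. Whole reads could not be recovered, since at most 6 of at least 3459 low genes shared a step between libraries, so the depth is unknown and no counting error is given. Symbols of 520 genes were added by identifier.

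Genes that reached 1 FPKM in 3 or more of the 6 libraries (11029 of 13288) were compared as log2(FPKM + 1) with limma 3.58.1 in R 4.3.3, using a variance trend, unadjusted P under 0.05 and Benjamini-Hochberg adjusted P beside it. The added 1 understates changes of low genes. On simulated data with 11029 genes for this comparison, 188 of 200 genes changed by 1 on the log2 scale were recovered, and 5.24% of the unchanged genes were called. The changed genes were drawn at random from all genes tested, so this recovery does not hold for genes of wide spread such as AGT, APLN, APLNR and EDNRB. The receptor ratio was compared with an exact permutation test. Alternatives were another filter, pseudocount, scaling or variance model, and leaving out each minipig. The text names the 9 genes, any gene of the lists of further peptide system genes, the 2 nearest profiles at most, and up to 4 genes with the smallest P of each other list. KDR, EMCN, ROBO4, MYL4, SLN, NPR3, NR2F1, TBX5, COG2, MYL2 and TNNT2 were named after their values were seen. The genes and lists were chosen with earlier results of these data known. Positions are those of the table and were set beside RefSeq genes of Sscrofa11.1.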

Additional observations from a re-analysis of the deposited data

How the results depend on the processing

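The call of ECE1, the only one among the 9 genes, did not hold throughout. The number of the 9 genes called was 0 with median scaling, quantile normalization, mitochondrially encoded genes left out, the variance of each gene alone, no variance trend or sample weights, with an unadjusted P of ECE1 from 0.0504 to 0.0763. It was between 0 and 1 without 1 minipig, where the log2 fold change of ECE1 ranged from -0.43 to -0.24. With a minimum of 5 FPKM, 579 of 6271 genes tested (9.23%, against 8.51% in the main setting) were DEGs, of which 71.5% were lower. Without 1 minipig there were 600 to 1029 DEGs over all genes, 600 without sham 1 and 631 without sham 3. The lower share was 50.8% without DAC 5.

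Without 1 minipig, the log2 difference of the endothelin receptor ratio ranged from -0.47 to 0.34, and log2 fold changes ranged from -0.62 to 0.30 for AGT, -0.25 to 0.069 for ACE, -0.14 to 0.020 for AGTR1, -0.12 to 0.27 for EDN1, -0.23 to 0.034 for EDNRA, -0.35 to 0.21 for EDNRB and -0.78 to 0.21 for APLN. They ranged from -0.12 to 0.23 for DPP3, -0.25 to 0.075 for ENPEP, -0.036 to 0.036 for LNPEP, -0.40 to 0.21 for PCSK6, -0.12 to 0.021 for PREP and -0.15 to 0.030 for THOP1. With mitochondrially encoded genes left out, AGTR1 was at 0.0034, ENPEP at 0.0024 and LNPEP at 0.039. LNPEP was also above 0 with median scaling (0.018), quantile normalization (0.048) and sample weights (0.011). None of these genes was called, and the cause was not tested. No paired analysis was made, because the minipigs were assigned to the groups at random and no pairing is given. With 3 minipigs per group and unknown depth, a P above the threshold does not show that levels were equal.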

Other observations

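Markers of other cells that the tissue can hold gave few calls, and 8.51% of all genes tested were DEGs. Of 7 arterial endothelial markers 0 were DEGs, with sums of 39.8 to 60.3 FPKM in the sham group and 36.9 to 62.2 FPKM in the DAC group. Of 7 venous and lymphatic markers 1 was higher (PDPN, podoplanin), against 3 DEGs without sham 1 or DAC 6. Of 10 cardiomyocyte markers 1 was lower (RYR2, the calcium release channel), and of 9 tested leukocyte markers 1 was lower (CD163, a scavenger receptor of macrophages). The cardiomyocyte count was 0 without sham 1 or sham 3, with quantile normalization, with mitochondrially encoded genes left out and with the variance of each gene alone, and the leukocyte count was 3 without DAC 4 or DAC 6. Leukocyte sums were 67.8 to 76.3 FPKM in the sham group and 58.4 to 87.2 FPKM in the DAC group. Mast cells matter here because their chymase can form angiotensin II. Of 7 listed mast cell markers, 2 were tested and 0 were DEGs. Their sums were 5.11 to 7.90 FPKM in the sham group and 4.63 to 7.28 FPKM in the DAC group. The other 5 were not analysed here, among them the chymase gene CMA1, so chymase itself was not read. No DEG was found by limma at an unadjusted P under 0.05 among 2 adipocyte, 1 red blood cell and 1 liver or kidney marker tested. Red blood cell sums ranged from 11.2 to 38.5 FPKM in the sham group and from 5.86 to 38.2 FPKM in the DAC group. The number of fibroblast, leukocyte and endothelial calls at an adjusted P under 0.05 was 0.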
